A study of Mus musculus with 6 samples.

Results

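The core circadian clock genes were examined in liver RNA of 6 mice, of which B253, B304, B305 were Lkb1KOlivad (the 3 mutants) and B256, B267, B302 were their 3 controls. The 10 genes *Arntl*, *Clock*, *Npas2*, *Per1*, *Per2*, *Per3*, *Cry1*, *Cry2*, *Nr1d1* and *Nr1d2* were taken by name, and 9 of them had a probe set that the array annotation assigns to a single gene, among 19938 such genes in all. *Npas2* had none and is not reported further. Each of the 9 measured genes had 1 probe set. The mutant mice carried a floxed *Lkb1* gene (*Stk11*) on both chromosomes and a tamoxifen-inducible Cre recombinase driven by the hepatocyte-specific transthyretin promoter. The controls, labelled WT, were littermates with the same floxed alleles and no Cre, and the study's methods describe FVB/N mice injected with tamoxifen as young adults and studied soon afterwards. All 6 mice are female in the labels. The study places the arrays in the fasted state, and neither the labels nor the methods give the hour at which each liver was taken.

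The clock of a liver cell is a loop of transcription and repression that turns about once a day. Arntl (also called Bmal1) pairs with Clock, or with its relative Npas2, and the pair switches on the Per and Cry genes through E-boxes. The Per and Cry proteins then return to the nucleus and silence their own activators. A second loop runs through Nr1d1 and Nr1d2 (Rev-erb alpha and beta), which the activators switch on and which repress *Arntl* and *Clock*, while the Ror receptors act on the same sites as activators. In liver the clock times glucose, lipid and bile acid metabolism, and food intake sets its phase. Lkb1 touches this loop through a known route, since it activates Ampk, and Ampk phosphorylates Cry1 and marks it for destruction.

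The deletion itself was plain on the arrays. *Stk11* had log2 signals of 6.52, 6.42 and 6.48 in the mutants (B253, B304, B305, the order kept for all genes here) and of 8.24, 8.13 and 7.96 in the controls (B256, B267, B302). It was the only gene of the 19938 with an adjusted p under 0.05 from limma (adjusted p = 0.00705), which made 0.00502% of the genes called. Of the 9 clock genes, 0 were called in either direction and 0 had an unadjusted p under 0.05, against 605 of all genes (3.03%). In none of the 9 did the mutant values lie all above the control values, which held for 3.46% of all genes, or all below them, which held for 3.7%. The median log2 difference (mutants minus controls) was 0.037 over the 9 clock genes and 0.0049 over all genes. Between mice of the same genotype, *Arntl*, *Per3*, *Nr1d1* and *Cry1* had a wide spread, described below.

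Stretches of 5 promoters show the letters that clock factors are known to bind. They were read from the RefSeq promoter table (build GRCm38.p6), which holds 13 windows for 9 of the 10 genes (all but *Per2*), each running from 250 bases before a transcript start to 50 after it. Capitals mark the E-box CACGTG, its variant CACGTT, the Rev-erb and Ror element TAGGTCA and the D-box TTATGTAA, to which Dbp, Tef, Hlf and Nfil3 bind. All 4 were searched on both strands, and a match on the opposite strand appears as its complement (AACGTG for CACGTT). *Arntl* and *Per3* are shown because their signals ran opposite to each other across the mice. *Cry1*, *Per1* and *Nr1d1* are shown as examples of repressor genes with an E-box or its variant before the start. *Cry2* also has the variant there and is not shown. The window of the other *Per1* start and all windows of *Clock* and *Nr1d2* held none of the 4 motifs.
Arntl (chr7:113207530-113207559, plus strand, 30 bases around the element): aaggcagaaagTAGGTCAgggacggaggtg
Per3 (chr4:151044666-151044915, minus strand, 250 bases before the start): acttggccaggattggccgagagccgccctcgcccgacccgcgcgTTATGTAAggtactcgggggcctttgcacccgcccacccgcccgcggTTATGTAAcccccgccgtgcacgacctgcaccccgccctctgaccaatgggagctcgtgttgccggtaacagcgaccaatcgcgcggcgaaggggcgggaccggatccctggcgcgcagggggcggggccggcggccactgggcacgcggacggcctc
Cry1 (chr10:85185055-85185304, minus strand, 250 bases before the start): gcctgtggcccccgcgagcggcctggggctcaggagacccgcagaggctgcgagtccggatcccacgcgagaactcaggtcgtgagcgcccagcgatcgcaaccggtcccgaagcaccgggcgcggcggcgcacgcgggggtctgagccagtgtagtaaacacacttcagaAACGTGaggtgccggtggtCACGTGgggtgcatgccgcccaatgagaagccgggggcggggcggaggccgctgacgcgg
Per1 (chr11:69098699-69098948, plus strand, 250 bases before the start): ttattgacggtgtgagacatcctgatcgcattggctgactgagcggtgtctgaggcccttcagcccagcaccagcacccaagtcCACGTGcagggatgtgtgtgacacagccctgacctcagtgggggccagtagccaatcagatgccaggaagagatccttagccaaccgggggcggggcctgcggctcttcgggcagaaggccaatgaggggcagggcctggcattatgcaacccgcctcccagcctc
Nr1d1 (chr11:98775378-98775627, minus strand, 250 bases before the start): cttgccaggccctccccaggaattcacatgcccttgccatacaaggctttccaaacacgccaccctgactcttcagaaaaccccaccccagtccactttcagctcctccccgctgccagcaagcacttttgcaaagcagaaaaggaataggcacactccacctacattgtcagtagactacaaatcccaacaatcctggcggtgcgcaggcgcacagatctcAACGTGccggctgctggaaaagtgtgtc

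The E-box CACGTG was found in 7.15% of the 32851 promoter windows of the table, and among the clock genes in *Cry1* and *Per1*. The variant CACGTT was in 4.69% of the windows and in *Cry1*, *Cry2* and *Nr1d1*. TAGGTCA, in 2.61% of the windows, was among the clock genes found in *Arntl* alone, where it begins at base 31 after one of its 2 starts in the table. TTATGTAA was the rarest, in 0.938% of the windows, and *Per3* held it at 2 places, beginning at positions -205 and -158, where -1 is the base just before the start. In *Cry1* the E-box begins at -60 and the variant at -79, so the motifs do not overlap. These are matches of letters, with no binding measured here.

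*Arntl* (probe set 10556463), the activator without which the liver clock stops, had log2 signals of 6.95, 5.72 and 5.85 in the mutants. The controls had signals of 6.55, 5.14 and 5.75. One mouse of each genotype, B253 and B256, was high, control B267 was the lowest, and the genotypes overlapped. The means were 6.18 ± 0.68 (SD, n = 3) and 5.82 ± 0.71 (SD, n = 3), and mutants minus controls gave 0.36 on the log2 scale (standard error, SE, 0.40, with a 95% confidence interval, CI, of -0.55 to 1.27). From the lowest to the highest mouse the signal differed 3.52-fold, and the lowest, in B267, was close to the median signal of that array (5.04).

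*Clock* (probe set 10530733), the partner of Arntl, had log2 signals of 8.32, 7.95 and 8.03 in the mutant mice (in the same order) and of 8.35, 7.84 and 8.0 in the controls. B253 and B256 were again the highest and B267 the lowest. The range was far narrower than that of *Arntl*, at 1.42-fold. The log2 difference between genotypes was 0.037 (SE 0.16, 95% CI -0.34 to 0.41), so a doubling or halving of *Clock* lies outside the interval, whereas the interval of *Arntl* includes a doubling.

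**Figure D1:**
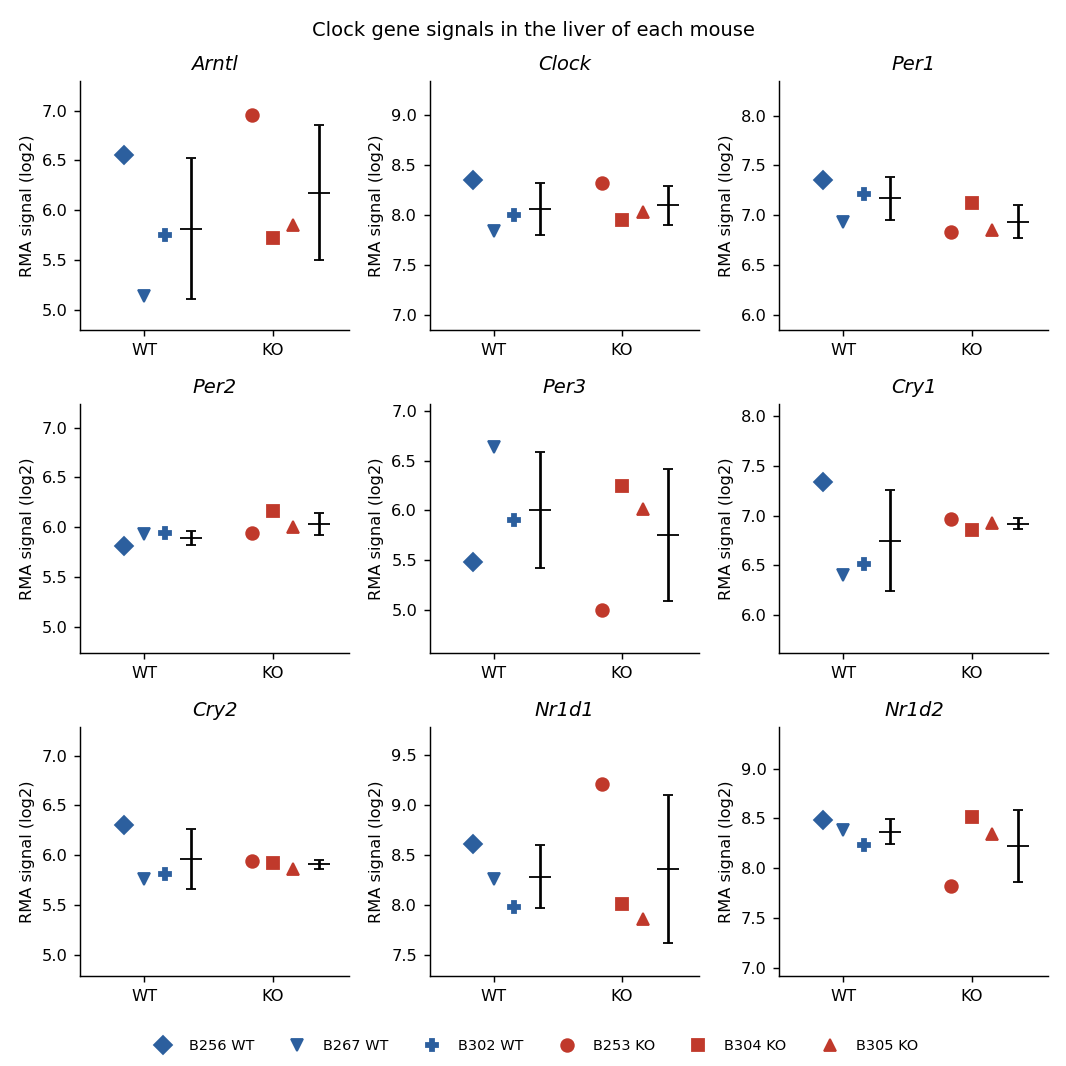
RMA signal (log2) of each of the 9 measured clock genes in the liver of each mouse, controls in blue and Lkb1KOlivad mice in red, with a separate marker for each mouse and the mean and SD (n = 3) of each genotype in black. All panels span the same height of log2 signal. The genotypes overlap in every panel, and B253 and B256 lie above the other mice for *Arntl*, *Clock* and *Nr1d1* and below them for *Per3*.

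The Per genes encode the repressors that enter the nucleus with the Cry proteins. *Per3* (probe set 10518781) had log2 signals of 5.0, 6.24 and 6.01 in the mutant mice and of 5.48, 6.64 and 5.90 in the controls. This was the mirror image of *Arntl*, with B253 and B256 lowest and B267 highest. *Per3* spanned 3.11-fold over the mice, while the genotypes differed by -0.25 on the log2 scale (SE 0.36, 95% CI -1.08 to 0.57). Its lowest signal, in B253, lay just below the median signal of that array (5.03), so its range reaches down to dim values. *Per1* (probe set 10377439), which hormones and feeding cues also induce, had signals of 6.83, 7.12 and 6.85 against 7.36, 6.93 and 7.22. Its log2 difference of -0.23 (SE 0.15, 95% CI -0.57 to 0.10) was larger than its SD within genotypes of 0.19, but control B267 lay below mutant B304. *Per2* (probe set 10356601), a repressor that also follows body temperature and other signals from outside the liver, was the steadiest of the 9, with signals of 5.95, 6.16 and 6.0 against 5.81, 5.93 and 5.95. Mutant B253 and control B302 were level there, and they alone kept the genotypes from lying apart. The log2 difference of *Per2* was 0.14 (SE 0.12, 95% CI -0.12 to 0.40).

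The Cry genes encode the strongest repressors of the loop. *Cry1* (probe set 10371400), whose protein Ampk marks for destruction, had log2 signals of 6.97, 6.86 and 6.93 in the mutant mice and of 7.33, 6.41 and 6.51 in the controls. The mutant mice lay close together, inside the wider range of the controls, with an SD of 0.056 against 0.51 (n = 3 each). The log2 difference was 0.17 (SE 0.23, 95% CI -0.34 to 0.68). *Cry2* (probe set 10485170), the second cryptochrome, had signals of 5.94, 5.92 and 5.86 against 6.31, 5.77 and 5.81. Control B256 was the highest and B267 the lowest mouse for both, and for *Cry2* too the mutant SD of 0.042 was smaller than the control SD of 0.30 (n = 3 each). The difference between these SDs was not tested. *Cry2* differed between genotypes by -0.053 (SE 0.16, 95% CI -0.41 to 0.31).

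*Nr1d1* (probe set 10390691), the heme-binding repressor of *Arntl*, had log2 signals of 9.21, 8.01 and 7.86 in the mutant mice and of 8.61, 8.26 and 7.97 in the controls. B253 was the highest and B256 the next, as for *Arntl*, although the protein made from *Nr1d1* represses *Arntl*. The range over the mice was 2.56-fold, and the log2 difference between genotypes was 0.077 (SE 0.33, 95% CI -0.68 to 0.84). *Nr1d2* (probe set 10417734), its close relative, did not follow it. Its signals were 7.82, 8.52 and 8.34 in the mutant mice and 8.48, 8.38 and 8.24 in the controls, so that B253 was the highest of the 6 mice for *Nr1d1* and the lowest for *Nr1d2*. The log2 difference of *Nr1d2* was -0.14 (SE 0.18, 95% CI -0.56 to 0.27).

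With limma the adjusted p was 0.9997 for each of the 9 genes. A two-sided, exact permutation comparison of 3 against 3 mice, whose smallest possible p is 0.1, gave p = 0.2 for *Per1* and *Per2* and p = 0.6 to 1 for the other 7 genes. The difference between genotypes was smaller than the SD within genotypes for 7 of the 9, all but *Per1* and *Per2*. The share of all genes for which this held was not counted, so it is not read as a trait of the clock genes. Nothing in the labels says that the mice differ in more than genotype, but their numbers fall into the two-hundreds and the three-hundreds, and each range holds both genotypes. Within the two-hundreds, B253 differed from the mean of B256 and B267 by 1.11 for *Arntl*, -1.06 for *Per3*, 0.77 for *Nr1d1* and -0.61 for *Nr1d2* on the log2 scale. Within the three-hundreds, B304 and B305 differed from B302 by 0.031, 0.23, -0.040 and 0.19 for the same genes. The interaction of genotype and number range (log2) was -1.08 for *Arntl*, 1.29 for *Per3*, -0.81 for *Nr1d1* and 0.80 for *Nr1d2*. For the other genes it lay between -0.24 (*Clock*) and 0.28 (*Cry1*). It is given as a description, without a p-value. Each value within a range rests on its single mutant or control mouse, B253 or B302.

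**Figure D2:**
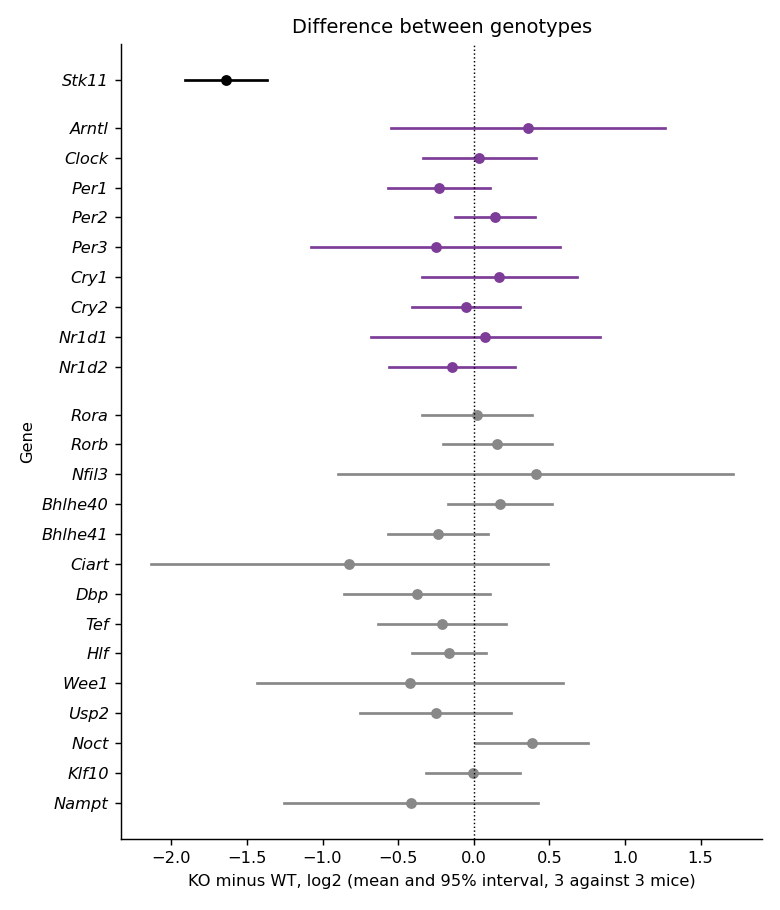
Difference between 3 Lkb1KOlivad and 3 control mice (log2, points) with its 95% confidence interval (lines) for *Stk11* in black, the 9 clock genes in purple and the genes of the second loop, the PAR bZIP factors and the clock outputs in grey. The interval of *Stk11* lies between -1.91 and -1.37, and the intervals of all 9 clock genes cross 0.

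The spread between mice of one genotype was wide for 4 of the clock genes. The SD within genotypes was 0.69 for *Arntl*, 0.62 for *Per3*, 0.57 for *Nr1d1* and 0.36 for *Cry1*. Of all 19938 genes, 99.3%, 99.1%, 98.7% and 93.3% had a smaller SD than these. The median SD was 0.27 over the 9 clock genes and 0.17 over all genes, and 8 of the 9 lay above the latter, *Per2* at 0.094 being the exception. Genotype accounted for 9.2% of the variation of *Arntl* over the 6 mice, 5.78% of that of *Per3* and 0.67% of that of *Nr1d1*. The median share was 7.67% over the clock genes and 9.54% over all genes.

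**Figure D3:**
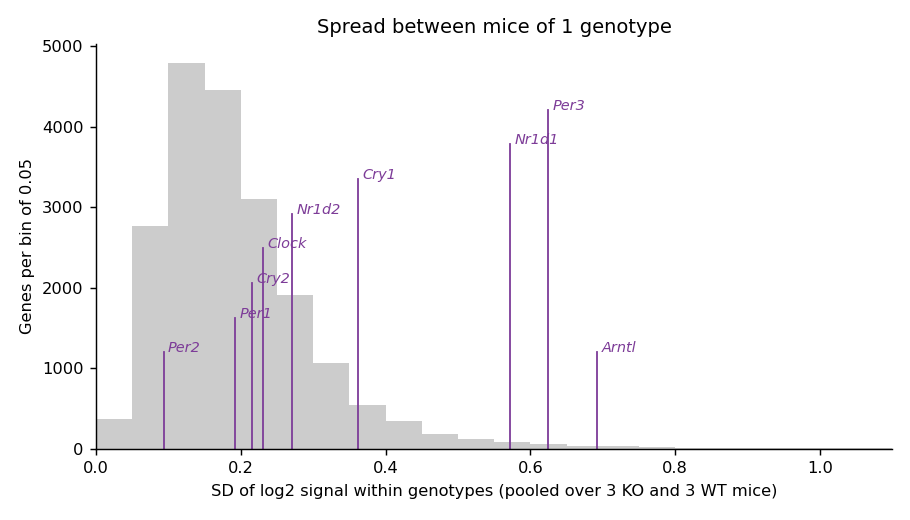
Number of genes (grey bars, of 19938) by the SD of their log2 signal within genotypes, pooled over 3 Lkb1KOlivad and 3 control mice, with the clock genes marked by purple lines whose height has no meaning. The axis ends at 1.1, and *Arntl*, *Per3* and *Nr1d1* lie in the far right tail.

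Several clock genes varied together from mouse to mouse. Over the 6 mice, *Arntl* and *Clock* had a Pearson r of 0.964 (Spearman rho 0.943), and *Arntl* and *Per3* one of -0.981 (rho -0.943). These are the closest of the 36 pairs in either direction. Without B253 and B256, the mice farthest from the median of *Arntl*, the r over the remaining mice was 0.971 and -0.915, and for deviations from each genotype's mean it was 0.985 and -0.982. All pairs come from the same 6 arrays, so the correlations share any difference between those arrays and are given as a description. *Clock* and *Per3* had an r of -0.935, and *Cry1* and *Cry2* one of 0.895. *Cry1*, which is transcribed later in the day than most other repressors, ran with the activators, at an r of 0.828 with *Clock* and 0.761 with *Arntl*. Without B253 and B256 these were 0.653 and 0.742. This was not particular to *Cry1*, since *Cry2* had an r of 0.788 with *Clock* and 0.638 with *Arntl*. *Nr1d1* also had a positive r with both over all 6 mice, as described below. In all, 7 pairs had an r above 0.7 and 3 an r below -0.7. Pairs of other genes were not counted in this way, so these numbers are not read as particular to the clock genes.

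*Arntl* and *Nr1d1*, which are out of step in a cycling liver, had a positive r of 0.78 (rho 0.429). That relation rested on B253 and B256, for which both genes were high. Among the remaining mice (B267, B302, B304 and B305) the order turned round. B267 was lowest for *Arntl* and highest for *Nr1d1*, and B305 the reverse. The r over these few mice was -0.973, and their *Nr1d1* signals spanned only 7.86 to 8.26. *Clock* and *Nr1d1* turned round in the same way, with an r of 0.751 over all 6 mice and -0.986 without B253 and B256. B253 and B256 were left out as the mice farthest from the *Arntl* median in these same data, so both values are only a description.

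**Figure D4:**
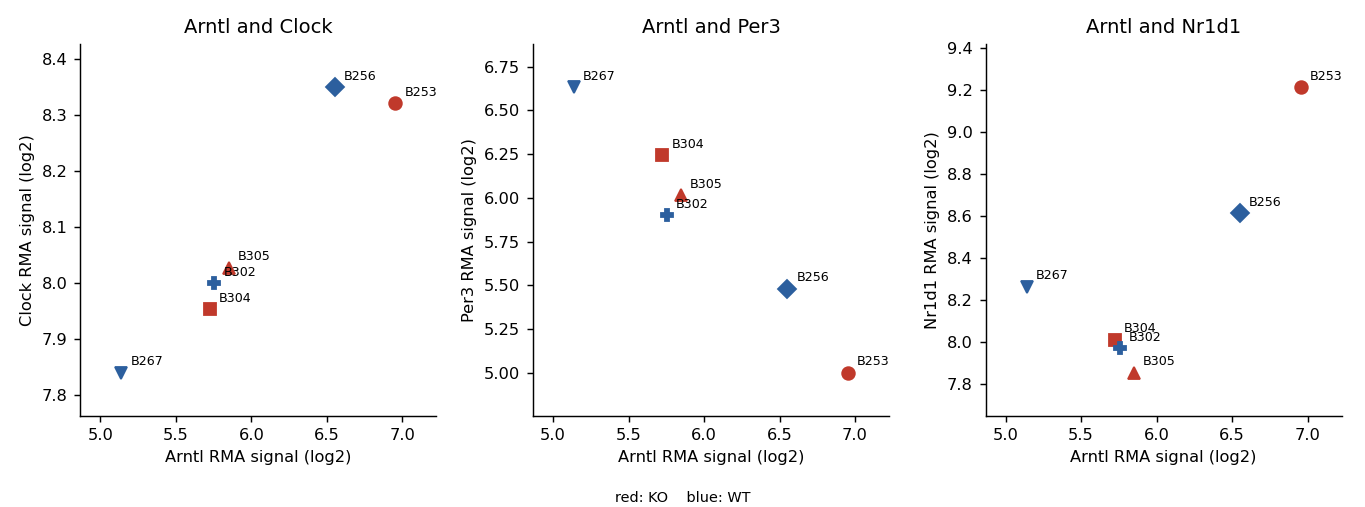
Log2 RMA signal of *Arntl* against that of *Clock*, *Per3* and *Nr1d1*, with 1 point per mouse, Lkb1KOlivad in red and control in blue. *Clock* runs with *Arntl* (r of 0.964) and *Per3* against it (r of -0.981). *Nr1d1* is high in B253 and B256 and runs against *Arntl* among B267, B302, B304 and B305 alone, over a narrow range of *Nr1d1*.

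The activator arm and the repressor arm were set against each other in each mouse, as the mean log2 signal of *Arntl* and *Clock* minus that of the 7 repressor genes. The difference was 0.82, -0.14 and 0.10 in the mutants and 0.40, -0.41 and 0.078 in the controls. B253 and B256 had the highest values and B267 the lowest, and the genotypes overlapped. The genotype means were 0.26 ± 0.50 and 0.020 ± 0.41 (SD, n = 3 each). The mean of the activators spanned 1.15 over the mice, against 0.26 for that of the repressors, in which *Per3* and *Nr1d1* ran in opposite directions. The first is a mean of 2 genes, with ranges of 1.81 for *Arntl* and 0.51 for *Clock*, and the second a mean of 7. The spans therefore do not show that the repressors were steadier. Without *Cry1* the values ran from -0.50 in B267 to 0.84 in B253. Probe sets differ in brightness, so only the change of this difference between mice can be read, not its height or its sign.

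Of 39 further genes of the clock pathway, 35 were measured and 0 were called. *Noct* was the 1 gene of the 35 with an unadjusted p under 0.05, which held for 3.03% of all genes. It was also the only one with all mutant values above the control values (3.46% of all genes). *Hlf* and *Fbxl21* had them all below (3.7% of all genes). The median log2 difference of the 35 was -0.0062. In the second loop, 0 of 6 measured genes were called, with a median of 0.089. *Nfil3*, a repressor that competes at D-boxes and is itself repressed by the Rev-erbs, had log2 signals of 9.64, 8.24 and 8.02 in the mutant mice and of 9.52, 7.41 and 7.73 in the controls. It followed *Arntl* (r of 0.959 over the 6 mice), with B253 and B256 high in the same way, and was chosen after its values were seen. *Ciart*, a repressor of the Clock and Arntl pair, had signals of 5.94, 8.16 and 8.43 against 8.85, 8.24 and 7.92. Here B253 and B256 parted, as the lowest and the highest of the 6 mice, 7.50-fold apart. *Bhlhe41*, an E-box repressor, had a log2 difference of -0.24 (SE 0.15), and *Bhlhe40*, its relative, one of 0.17 (SE 0.15). *Rorb*, a Ror receptor best known from brain and retina, differed by 0.15 (SE 0.16). *Bhlhe41* (3.23 to 3.89) and *Rorb* (3.63 to 4.19) lay below the median signal of every array (5.03 to 5.08), and no detection call says whether they were above background.

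The PAR bZIP factors, which carry the rhythm to genes of detoxification and lipid metabolism through D-boxes, had 0 of 3 called and a median log2 difference of -0.21. *Dbp* had signals of 5.80, 6.51 and 6.20 in the mutant mice and of 6.44, 6.90 and 6.31 in the controls, with B253 lowest and B267 highest, as for *Per3*. Its log2 difference was -0.38 (SE 0.21). *Tef* had one of -0.21 (SE 0.19), and *Hlf* one of -0.16 (SE 0.11), the latter with signals of 7.19 to 7.28 in the mutant and 7.35 to 7.45 in the control mice.

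Of 5 clock outputs of liver, 0 were called, and the median was -0.25. *Wee1*, a kinase that holds back cell division and is driven by E-boxes, had log2 signals of 4.35, 5.78 and 5.61 in the mutant mice and of 5.01, 6.52 and 5.47 in the controls. It tracked *Per3* with an r of 0.994 and *Arntl* with one of -0.979, and spanned 4.51-fold. In B253 and B256 *Wee1* lay below the median signal of the array (5.03 and 5.04), so these values rest partly on dim signals. *Noct*, a phosphatase of nicotinamide cofactors, had signals of 6.93, 6.45 and 6.45 against 6.14, 6.12 and 6.43. The lowest mutant lay just above the highest control, and the difference was 0.38 (SE 0.16, adjusted p = 0.9997 from limma). *Nampt*, which makes the precursor of NAD, had signals of 7.89, 9.46 and 8.87 against 9.31, 9.49 and 8.68, and only B253 stood clearly low. *Usp2*, a deubiquitinase, was likewise lowest in B253 at 6.80, against 7.31 to 7.77 in the other mice.

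**Figure D5:**
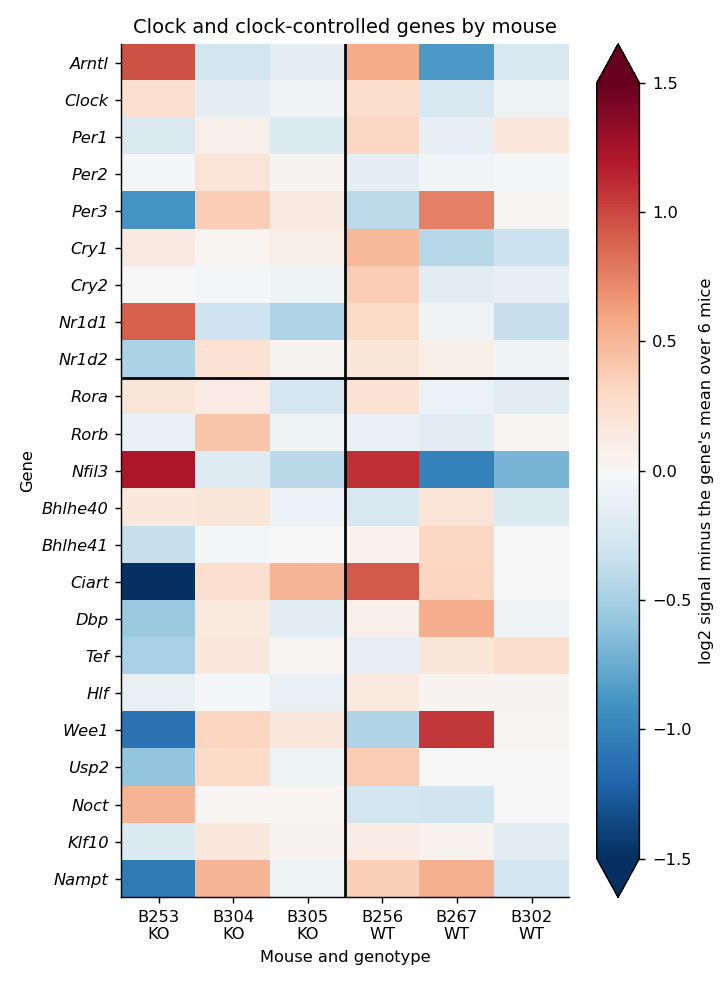
Log2 signal of each gene in each mouse minus the gene's mean over the 6 mice (colour, red above and blue below), with the 9 clock genes above the horizontal line and the second loop, PAR bZIP factors and outputs under it, and Lkb1KOlivad mice left of the vertical line. Colours stop at 1.5 in either direction, which *Ciart* in B253 exceeds. B253 and B256 share high *Arntl*, *Clock* and *Nfil3* and low *Per3* and *Wee1*, and they differ in *Ciart*, *Nampt* and *Usp2*.

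The stability of the clock proteins is set by enzymes that modify them. Of 14 kinases, ubiquitin ligases and related enzymes, 12 were measured, 0 were called and the median log2 difference was -0.022. *Prkaa1*, a catalytic subunit of Ampk, had a log2 difference of -0.27 (SE 0.17), and *Fbxl21*, a ubiquitin ligase subunit that binds Cry proteins, one of -0.18 (SE 0.11). The *Fbxl21* signals, 4.85 to 5.19, lay near the array medians (5.03 to 5.08). *Gsk3a* and *Gsk3b*, kinases of Per2 and Rev-erb alpha among others, had differences of -0.24 (SE 0.17) and -0.13 (SE 0.12). Of 10 co-regulators, 9 were measured, 0 were called and the median was 0.045. *Ep300*, an acetyltransferase recruited by the activators, had the smallest p of these, at a log2 difference of 0.31 (SE 0.30), and control B302 alone was low, at 6.65 against 7.51 to 7.97. *Hdac3*, the deacetylase through which the Rev-erbs repress, had one of 0.12 (SE 0.14). *Sirt1*, an NAD-dependent deacetylase, and *Timeless* had differences of -0.094 (SE 0.11) and 0.13 (SE 0.15).

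Apart from the 9 clock genes, the genes whose signals were most like those of *Arntl* over the 6 mice were *Lman2*, *Psmb6* and *Os9*, with an r of 0.985, 0.979 and 0.977. Those most like *Nr1d1* were *Arf4*, *Cpn1* and *Slc35b1*, with an r of 0.988, 0.987 and 0.986. They were drawn from 3669 genes with a mean log2 signal of at least 6 and an SD of at least 0.2, of which 89 had an r above 0.9 with *Arntl* and 126 with *Nr1d1*. None of the 6 genes named is on a list of the clock pathway. *Lman2*, a cargo receptor of the secretory pathway, had log2 signals of 8.97, 8.37 and 8.40 in the mutants and of 8.72, 8.06 and 8.23 in the controls, the order of *Arntl* apart from B302 and B304. *Arf4*, a small GTPase of the Golgi, had signals of 8.83, 8.11 and 8.05 against 8.59, 8.35 and 8.15.

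Over all 35556 probe sets, B253 and B256 had an r of 0.987, the highest of the 15 pairs of arrays, and pairs with B302 were the lowest, at 0.9726 to 0.9746. Over the 19938 genes with a single symbol, less those on the clock lists, B304 and B305 were the closest pair, at 0.9901. B253 and B256 were next at 0.9887. This set also lacks the probe sets without a single symbol, so the change of closest pair cannot be assigned to the clock genes. The median log2 signal of an array was 5.03 to 5.08. The tissue was liver by its markers, with a mean log2 signal of 12.2 to 12.6 over 6 measured hepatocyte genes in each mouse. The 26 measured markers of other cell types of liver had 0 genes called and 2 with an unadjusted p under 0.05 (*Lrat* and *Cd79a*), against 3.03% of all genes. Their difference was below 0 for 17, against 9654 of all 19938 genes. Their mean signal was 6.16 to 6.25 in the mutant and 6.06 to 6.39 in the control mice. All 5 stellate cell genes had a difference below 0, with a median of -0.22, and all 3 neutrophil genes one above 0, with a median of 0.36. Control B267 was nevertheless the highest mouse for *S100a8* (5.88) and *S100a9* (7.82), and *Ly6g* (3.11 to 3.69) lay below the array medians. *Lrat*, which esterifies retinol, had a difference of -0.43 (SE 0.14, adjusted p = 0.9997 from limma). The mutant values of *Lrat*, *Epcam* and *Cd3e* lay all below the control values (3.7% of all genes), and those of *Cd79a* all above (3.46%). *Cd79a* (3.44 to 4.28) and *Epcam* (3.93 to 4.36) lay below the array medians. The 5 Kupffer cell genes had a mean signal of 7.56 in B253, 7.91 in B256, 7.75 in B267 and 7.02 to 7.41 in the other mice. The part of these differences in the pattern of the clock genes was not tested, and in whole liver a change in the number of cells of a type cannot be told apart from a change of RNA per cell. With B253 and B256 both left out, a step chosen after seeing the data, 0 clock genes were called. The log2 difference was then 0.34 for *Arntl*, -0.14 for *Per3*, 0.44 for *Cry1* and -0.19 for *Nr1d1*.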

How the data were processed

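The arrays held liver RNA of 3 Lkb1KOlivad (KO) and 3 control (WT) female mice, with 1 array per mouse. Groups were taken from the genotype label. The deposited values are log2 signals that the authors made with RMA, per the labels, and Partek is named beside it. The sources used here give no versions. These values were taken without a further background or normalization step. The number of arrays limits the precision, and over all genes the 95% confidence interval extended a median of 0.32 to each side of a difference.

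Of 35556 probe sets, 21789 had 1 gene symbol in an annotation of an earlier array generation than the one the methods name, 1621 had several and 12146 none. Symbols were updated by gene identifier (21698 found), and the brightest probe set was kept for the 999 genes with several. KO and WT were compared with limma 3.58.1 in R 4.3.3 across all 19938 genes, without an intensity filter or covariate, with Benjamini-Hochberg adjustment and a threshold of 0.05. The procedure was tested on simulated data. The p-values set the difference between genotypes against the spread between mice of the same genotype. The sources do not say how litters or handling were divided, so the p-values cannot separate genotype from such a division. The clock genes and the lists were chosen with earlier results of these data known. The genes named are the clock genes, *Stk11*, the genes of each other list with the smallest p (up to 4), and the 3 most like *Arntl* and *Nr1d1*. *Usp2*, *Nampt*, *Wee1*, *Noct*, *Nfil3* and *Ciart* are described mouse by mouse for a spread seen in the data, and *Nfil3* lies outside the rule. The alternatives were quantile normalization, median centring, leaving out dim genes, the mean of probe sets, array weights, robust estimation with an intensity trend, the number range of the mice as a term, an unpaired t-test, which the study's general statistics name without saying that it was used for the arrays, and leaving out each mouse. Figures used matplotlib 3.10.9 in Python 3.11.15.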

Additional observations from a re-analysis of the deposited data

How the results depend on the processing

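Of the 9 clock genes and the 35 other pathway genes, 0 were called under every alternative, and the smallest adjusted p of a clock gene was 0.968. The count of all genes called, 1 (*Stk11*), was 0 in the t-test (adjusted p of *Stk11* 0.566) and without mice B253 and B256, and 0 to 1 when each mouse was left out, staying at 1 only without control B302. *Stk11* itself had a log2 fold change of -1.71 to -1.57 under all alternatives. Leaving out B253 and B256 together was chosen after seeing the data.

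No clock gene was called, so its sign carries no finding, and 15 of 135 recomputed fold changes turned sign. *Clock* lay at -0.00029 with quantile normalization and *Nr1d1* at -0.062 with array weights. Without mice B253 and B256, *Cry2* lay at 0.10, *Nr1d1* at -0.19 and *Nr1d2* at 0.12. Leaving out each mouse gave -0.029 to 0.73 for *Arntl*, -0.075 to 0.18 for *Clock*, -0.51 to 0.12 for *Per3*, -0.0019 to 0.46 for *Cry1*, -0.15 to 0.12 for *Cry2*, -0.35 to 0.33 for *Nr1d1* and -0.29 to 0.061 for *Nr1d2*. Without mutant mouse B253, *Arntl* lay at -0.029, *Per3* at 0.12, *Nr1d1* at -0.35 and *Nr1d2* at 0.061, and without control B256, *Clock* lay at 0.18, *Cry1* at 0.46 and *Cry2* at 0.12. *Per1* lay at -0.35 without control B267. With the number range as a term, *Arntl* lay at 0.57, *Clock* at 0.11, *Per3* at -0.41, *Nr1d1* at 0.37 and *Cry2* at -0.0066. The difference between genotypes in activators minus repressors was 0.24, -0.039 to 0.44 when each mouse was left out, and 0.15 to 0.37 under the alternatives that gave a value for it. The cause was not tested. No paired analysis was possible because the labels give no replicate numbers that the genotypes share.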
